A study of Mus musculus with 22 samples.

Results

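The genes of collagen chains were followed in microglia and astrocytes sorted from the cortex of aged mice with and without amyloid transgenes. They were taken as every gene whose symbol is Col, a number, the letter a and a number, which gave 43 of the 22485 genes with a named probe, each read by its brightest probe over all 22 samples. The groups were 7 microglia and 4 astrocyte samples of APPswe/PS1dE9 mice, here APP/PS1, and the same numbers of their WT littermates, all C57BL/6 and 15 to 18 months old. APP/PS1 mice carry transgenes for mutant forms of the human amyloid precursor protein and of presenilin 1 and form amyloid plaques; WT mice carry neither. Microglia were sorted as CD11b+ and CD45+, astrocytes as positive for the glutamate transporter GLT1 and negative for CD11b, and in both myelin had been removed and O4-positive oligodendrocyte lineage cells left out. The labels call the samples biological replicates. Neither the number of animals behind a sample nor the promoter of the transgenes is stated there.

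Collagens are secreted proteins of the extracellular matrix, built from chains that wind around each other into a helix. Chains of types I, II, III, V, XI, XXIV and XXVII form fibrils, whereas type IV chains form the sheet-like network of basement membranes, to which the multiplexins, types XV and XVIII, are attached. Type VI forms beaded filaments, the FACIT chains sit on the surface of fibrils, and some chains span the cell membrane. In the brain the basement membrane lies around blood vessels and under the pia, between the vessel wall and the end-feet of astrocytes. Fibrillar collagen is known mainly from the meninges and the walls of larger vessels. Endothelial cells, mural cells (pericytes and smooth muscle), fibroblasts and astrocytes all contribute to these structures.

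Each array held 1 APP/PS1 and 1 WT sample of the same number, labelled in 2 dyes that were exchanged between arrays. The deposited values were log2 intensities with near identical distributions (sample medians 6.24 to 6.26), so 1 unit is a doubling, and values of different genes, which come from different probes, are not compared here. In WT samples Slc1a2, the gene of GLT1, read 16.02 ± 0.22 in astrocytes (SD, n = 4) against a mean of 7.01 in microglia, and the microglial gene Cx3cr1 read 7.94 ± 1.37 against 17.41. Itgam, the gene of CD11b, went against the sort with means of 13.50 in WT astrocytes and 13.95 in WT microglia. The Y-linked gene Eif2s3y differed by more than 4 log2 units within the arrays of astrocyte replicates 1 and 3 and of microglia replicate 1. Results without these arrays are given where they alter a count of collagen genes.

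More collagen chains were higher in WT astrocyte samples than were higher in WT microglia samples. Of the 36 collagen genes that could be compared between WT astrocytes and WT microglia, 19 were higher in astrocytes and 4 lower (limma, adjusted p under 0.05 with Benjamini-Hochberg adjustment over all genes), where 36.5% of all genes tested were higher and 19.1% lower (55.7% in either direction). Their median difference was 0.94, against 0.34 for all genes. These are bulk samples, in which fewer cells of a type and less RNA per cell cannot be told apart, and all astrocyte arrays lay on a slide of their own, so that a slide effect and a cell type effect cannot be told apart either. With slide as a random block, 17 of the 23 differences kept their call, and those of Col4a4, Col6a1, Col6a4, Col11a1, Col14a1 and Col15a1 did not. That setting does not separate slide from cell type either, since no slide held both cell types.

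Among the fibrillar chains, 8 of 9 tested were higher in astrocytes, where 36.5% of all genes tested were. Col1a1, the α1 chain of type I collagen, read 8.28, 8.77, 9.17 and 7.80 in WT astrocytes and 0.84 to 3.61 in WT microglia (median 2.85), a difference of 5.68 ± 0.52 (SE, adjusted p = 7.33e-09). Its partner Col1a2 read 11.23 ± 0.47 in WT astrocytes (SD, n = 4) and 7.12 ± 0.17 in WT microglia (n = 7), a difference of 4.11 ± 0.23. The groups did not overlap for either chain. Col5a3, a type V chain that co-assembles with type I fibrils, differed by 5.88 ± 0.48 (9.25 ± 0.39 against 3.41 ± 0.73, n = 6 microglia). Col27a1 was the exception, at 9.44 ± 0.37 in WT microglia and 6.34 ± 0.44 in WT astrocytes, a difference of -3.11 ± 0.25 (adjusted p = 8.72e-10).

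Type IV chains differed among themselves. Col4a1 and Col4a2, which join as the common network of vascular basement membranes, read 10.50 ± 0.82 and 10.26 ± 0.80 in WT astrocytes (n = 4) and 4.62 ± 0.50 and 4.20 ± 0.68 in WT microglia (n = 6). Their differences of 5.86 ± 0.37 and 6.05 ± 0.38 were among the 5 largest of all collagen chains in this direction. Col4a5 was higher by 3.86 ± 0.39 and Col4a4 by 0.79 ± 0.29, Col4a3 did not pass (0.73 ± 0.49, adjusted p = 0.233), and Col4a6 was lower by a small step (-0.70 ± 0.13). The direction for Col4a6 rests on the probe, since the mean of its 2 probes gave 0.83. The multiplexins went opposite ways: Col18a1, the source of the fragment endostatin, differed by 4.28 ± 0.53, and Col15a1 by -2.48 ± 0.65 (adjusted p = 0.0026).

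Of the remaining chains, Col16a1, a FACIT, read 10.84 ± 0.28 in WT astrocytes (n = 4) and 5.37 ± 0.68 in WT microglia (n = 7), a difference of 5.46 ± 0.34. Col25a1, a transmembrane chain known as a component of amyloid plaques in Alzheimer's disease, was higher in microglia samples, at 7.09 ± 0.26 against 4.51 ± 0.31 (difference -2.60 ± 0.27, adjusted p = 5.03e-08). The genotype effect on Col25a1 was 0.20 ± 0.14 in microglia and 0.18 ± 0.19 in astrocytes, neither past the threshold. Its dimmer probes disagreed in sign, at 0.12 and -0.45 in microglia and -0.09, 0.45 and 0.95 in astrocytes, none past it. The dimmest probe was not tested in microglia. When the APP/PS1 groups were compared between cell types in place of the WT groups, 23 of the 23 called chains kept their call and sign.

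**Figure D1:**
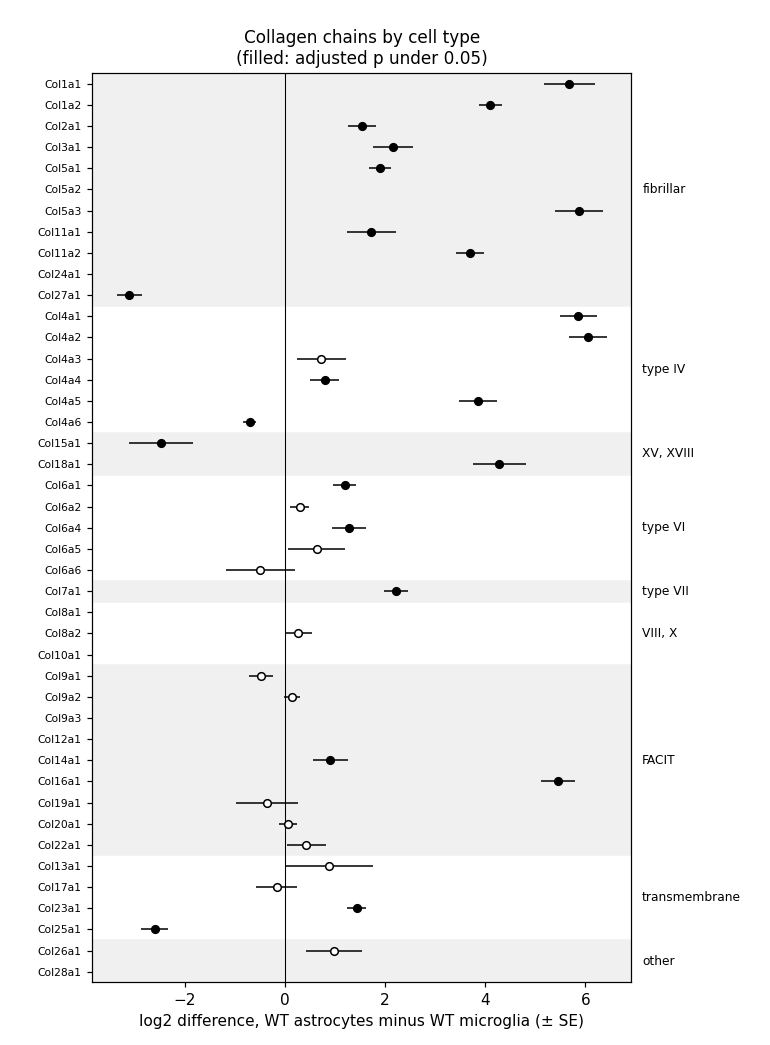
Difference between WT astrocytes and WT microglia for each collagen chain, on the log2 scale with SE, ordered by structural class; filled points passed an adjusted p of 0.05, and chains without a point were measured on fewer than 3 microglia arrays. Most fibrillar chains and the pair Col4a1 and Col4a2 lie to the right (higher in astrocytes, up to 6.05 for Col4a2), with Col27a1, Col25a1 and Col15a1 to the left.

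In astrocyte samples, 5 of the 8 chains of type IV, XV and XVIII were higher in APP/PS1 than in WT mice, as were most markers of endothelial and mural cells, whose values are given further on. Col18a1 was 4.27-fold higher, Col4a1 3.43-fold and Col4a2 2.93-fold, and the fibrillar chains Col3a1 and Col1a2 and the FACIT chain Col14a1 were also higher. Of 43 chains tested, 11 were higher and 4 lower (limma with the array as a replicate block), where 15.4% of all genes tested were higher and 18.1% lower (33.5% in either direction). The median over the chains was 0.13, against -0.07 for all genes. Without the replicate block 5 were higher and 0 lower (11 and 4 at an unadjusted p under 0.05), where 2450 of 22416 genes tested passed in either direction. Dropping the block left the estimates of the 15 called chains unchanged and altered only their spread, so their signs could not differ. A fit of the astrocytes alone kept 6 of the 15 calls, those of Col1a2, Col4a1, Col4a2, Col4a5, Col14a1 and Col18a1, and none of the 4 lower chains.

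Col4a1 read 11.16, 10.19, 9.48 and 11.18 in WT astrocyte samples 1 to 4 and 12.67, 12.50, 11.24 and 12.69 in the APP/PS1 samples of the same numbers. The lowest APP/PS1 sample lay just above the highest WT sample, so the groups did not overlap. The difference was 1.78 ± 0.20 (SE, adjusted p = 0.000346), and it was positive on 4 of 4 arrays, at 1.52, 2.31, 1.76 and 1.51. All 10 probes of Col4a1 gave a difference between 1.67 and 1.78. Whether these probes differ in sequence was not examined, so they may not be separate readings.

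Col4a2 followed its partner, with 10.80, 10.06, 9.21 and 10.96 in WT and 12.28, 11.99, 10.84 and 12.12 in APP/PS1 astrocytes. Each APP/PS1 sample was above its array partner, although the lowest of them lay below the highest WT sample. The difference was 1.55 ± 0.20 (adjusted p = 0.000607). Both chains were past the threshold in 12 of 12 alternatives, at 1.62 to 1.93 for Col4a1 and 1.42 to 1.69 for Col4a2.

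The genes of Col4a1 and Col4a2 lie head to head on chromosome 8. Their RefSeq starts are 21 bases apart on opposite strands (GRCm38.p6), and the stretch from one start to the other, chr8:11312805-11312826, is shown on each strand because the pair shares it.
Col4a2, plus strand: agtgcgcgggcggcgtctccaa
Col4a1, minus strand: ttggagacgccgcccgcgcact
The other head-to-head pair, Col4a5 and Col4a6, has starts 1343 bases apart.

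Col4a5 read 8.13, 7.58, 7.21 and 8.82 in WT and 9.61, 9.45, 8.02 and 8.89 in APP/PS1 astrocytes. It was higher on 4 of 4 arrays, but by only 0.07 on that of replicate 4, for a difference of 1.06 ± 0.23 (adjusted p = 0.0065). Col4a3 was dim, with 4.11, 4.04, 1.87 and 3.75 in WT and 4.24, 4.99, 3.63 and 4.95 in APP/PS1, a difference of 1.013 ± 0.25 (adjusted p = 0.021). Its call was lost without replicate 2, 3 or 4 (adjusted p = 0.095, 0.0866 and 0.0543). Col4a4 gave 0.44 ± 0.17 (adjusted p = 0.075). Col4a6 was read differently by its probes, at -0.07 ± 0.09 for the brighter and 1.68 ± 0.37 for the dimmer (adjusted p = 0.0126), and the mean of both probes gave 0.80, past the threshold.

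Col18a1 had the largest effect of any collagen chain in astrocytes. It read 9.19, 7.43, 7.30 and 9.16 in WT and 11.54, 10.03, 9.11 and 10.78 in APP/PS1, a difference of 2.10 ± 0.26 (adjusted p = 0.000769). The WT samples fell into a higher and a lower pair, and the APP/PS1 sample was the higher on every array, by 2.36, 2.60, 1.81 and 1.61. Its other probe gave 1.67 ± 0.36 (adjusted p = 0.00935). Col15a1, the other multiplexin, was at 4.85, 4.44, 2.36 and 3.66 in WT and 4.50, 1.51, 3.90 and 4.95 in APP/PS1. It was higher on 2 arrays and lower on 2, and its difference of -0.11 ± 0.55 did not pass (adjusted p = 0.899).

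The fibrillar chains went different ways: 3 of 11 were higher in APP/PS1 astrocytes and 1 lower, where 15.4% and 18.1% of all genes tested were. Their median was 0.13. Col3a1, the chain of type III collagen that accompanies type I in vessel walls, read 6.83, 5.40, 6.21 and 6.41 in WT and 8.65, 7.64, 6.46 and 8.61 in APP/PS1. Replicate 3 rose by 0.24 and the other replicates by 1.83 to 2.24, for a difference of 1.63 ± 0.32 (adjusted p = 0.00321; 0.0618 in a fit of the astrocytes alone). Col1a2 read 11.66, 11.17, 10.60 and 11.51 in WT and 12.67, 12.36, 10.97 and 12.42 in APP/PS1, a difference of 0.87 ± 0.13 (adjusted p = 0.000698). Again replicate 3 moved least, by 0.37, and the APP/PS1 sample of that array lay among the WT values.

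Col1a1, which pairs with Col1a2 in type I collagen, was at 8.28, 8.77, 9.17 and 7.80 in WT and 7.20, 7.61, 8.59 and 7.40 in APP/PS1 astrocytes. It was lower on 4 of 4 arrays, while Col1a2 was higher on the same arrays. The difference of -0.81 ± 0.37 did not pass (adjusted p = 0.123), and over the alternatives its adjusted p ran from 0.0454, in a fit of the astrocytes alone, to 0.441. Each of these chains was read by 1 probe.

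Of the type V chains, Col5a1 read 6.06, 5.82, 5.58 and 6.24 in WT and 6.78, 6.19, 5.88 and 6.63 in APP/PS1 astrocytes. Its difference of 0.45 ± 0.14 (adjusted p = 0.0382) was positive on 4 of 4 arrays and lost its call without replicate 1, 3 or 4 (adjusted p = 0.096, 0.128 and 0.152). Col5a2 gave 0.13 ± 0.20 and Col5a3 -0.43 ± 0.40, neither past the threshold. Col11a2, a chain of the cartilage fibril collagen type XI, was lower, with 8.19, 8.65, 8.53 and 8.64 in WT and 7.10, 8.63, 8.17 and 7.15 in APP/PS1. The low values were those of replicates 1 and 4, and the difference of -0.74 ± 0.21 (adjusted p = 0.022) lost its call without either (adjusted p = 0.109 and 0.102).

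Type VI chains, which form filaments next to basement membranes, were higher for 2 of 5 genes, where 15.4% of all genes tested were. Col6a1 read 5.64, 5.17, 5.84 and 4.89 in WT and 6.09, 5.48, 6.20 and 6.42 in APP/PS1, a difference of 0.66 ± 0.17 (adjusted p = 0.0121). Col6a2 read 5.81, 5.85, 5.48 and 5.64 in WT and 6.72, 6.21, 5.79 and 6.26 in APP/PS1, a difference of 0.55 ± 0.11 (adjusted p = 0.00322). Both were higher on 4 of 4 arrays with groups that overlapped. The other 3 genes, Col6a4, Col6a5 and Col6a6, ran from -0.36 to 0.58 and did not pass.

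Col14a1, a FACIT chain that binds fibrils, was the sole FACIT gene called in astrocytes among 9. It read 7.13, 6.18, 5.60 and 7.76 in WT and 8.63, 8.66, 7.05 and 8.26 in APP/PS1, for a difference of 1.49 ± 0.21 (adjusted p = 0.000658). Its dimmer probe gave 0.48 ± 0.14 (adjusted p = 0.0268). Between the cell types, Col14a1 was higher in WT astrocytes than in WT microglia by 0.91 ± 0.35 (adjusted p = 0.0346). Col16a1, the FACIT gene with the largest tested difference between these groups, showed a genotype effect of -0.04 ± 0.21 in astrocytes. It stood at 10.84 ± 0.28 in WT and 10.79 ± 0.62 in APP/PS1 astrocytes.

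Besides Col11a2, the chains lower in APP/PS1 astrocytes were Col7a1, Col23a1 and Col8a2. Col7a1, the anchoring fibril chain known from skin, read 8.15, 8.53, 9.04 and 8.63 in WT and 7.59, 8.58, 8.15 and 7.25 in APP/PS1. It was lower on 3 of 4 arrays, by -0.70 ± 0.17 in the fit (adjusted p = 0.00998). Col23a1, a transmembrane chain, read 6.72, 6.72, 6.71 and 6.23 in WT and 5.97, 6.32, 6.18 and 5.85 in APP/PS1, a difference of -0.52 ± 0.13 (adjusted p = 0.012). Its call was lost without replicate 1 (adjusted p = 0.0622). Its dimmer probes gave -0.37 ± 0.16 and -0.35 ± 0.18, neither past the threshold (adjusted p = 0.109 and 0.179). Col8a2, of the short-chain network, gave -0.40 ± 0.13 (adjusted p = 0.0407) with 4.70, 5.27, 5.76 and 4.96 in WT and 3.76, 4.77, 5.65 and 4.92 in APP/PS1. The call on Col8a2 was lost without any of the 4 replicates, and its other probe gave 1.13 ± 0.63.

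The other chains in astrocytes did not pass. Those nearest the threshold, named after their values were seen, were Col8a1 (1.33 ± 0.37, adjusted p = 0.0507), Col20a1 (-0.30 ± 0.10, adjusted p = 0.0509) and Col12a1 (0.82 ± 0.28, adjusted p = 0.0855). Col12a1 and Col4a1 were the 2 of 43 chains whose astrocyte groups did not overlap, both higher in APP/PS1, where 17.3% of all genes tested had groups that did not overlap in either direction. In both astrocyte groups, 12 chains had means under 4.30, the 25th percentile of genes.

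**Figure D2:**
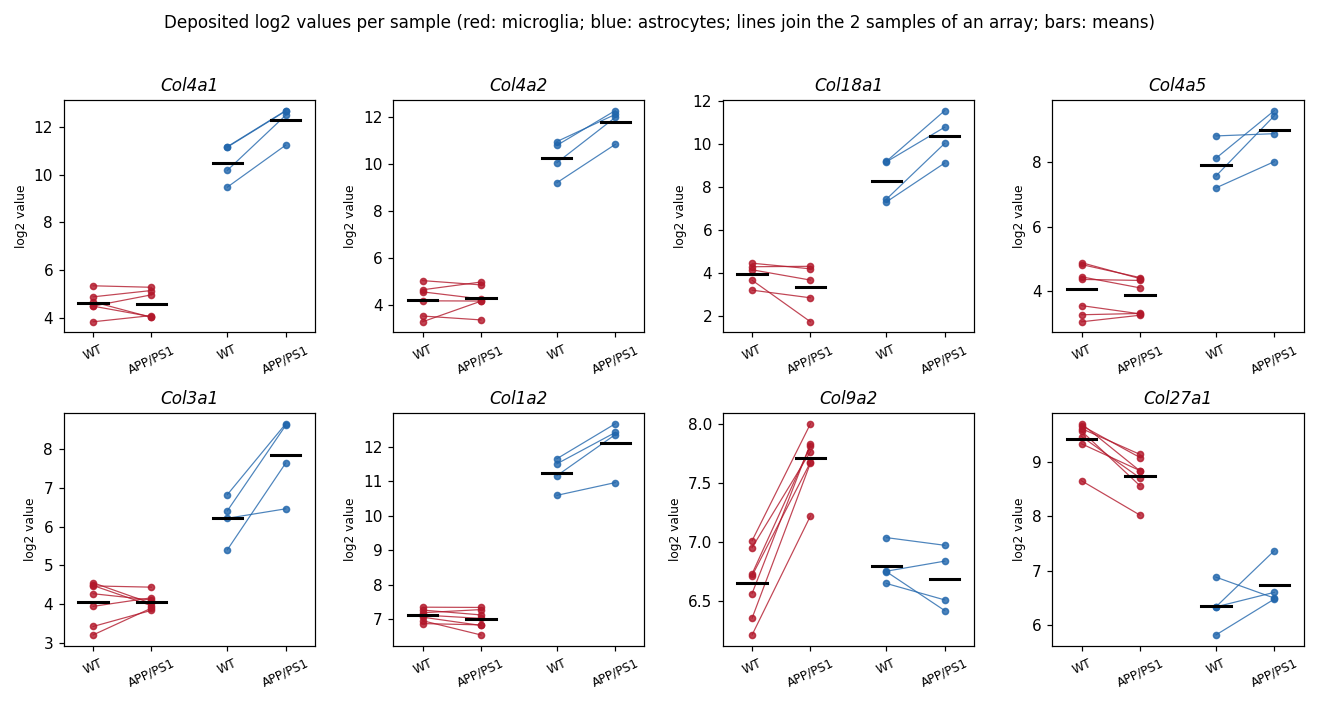
Deposited log2 values of 8 collagen chains in every sample, with lines joining the samples of an array and bars at group means; each panel has its own axis. In astrocytes the lines of Col4a1, Col4a2, Col18a1, Col4a5, Col3a1 and Col1a2 all rise, and in microglia every line of Col9a2 rises (WT 6.22 to 7.01, APP/PS1 7.22 to 8.00) and every line of Col27a1 falls.

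Set against each other in astrocytes, 4 of 6 type IV chains were higher and 0 lower with a median of 1.04, and 3 of 11 fibrillar chains were higher and 1 lower with a median of 0.13. Of all genes tested, 15.4% were higher and 18.1% lower. Array by array, the type IV median was 1.08, 1.41, 1.22 and 0.61 in replicates 1 to 4, and the fibrillar median was -0.11, 0.37, 0.27 and -0.39. The type IV median was thus above the fibrillar median on every array, and the fibrillar median had no constant sign. Adding the multiplexins to type IV gave 5 of 8 higher and a median of 1.04. Both medians depended on which chains were taken: over genes above the median gene they were 1.55 and 0.63, and over genes measured in all samples, which leaves out Col4a1, Col4a2 and Col4a3, the type IV median was 0.44. Without the arrays that differed in Eif2s3y, only the 2 astrocyte arrays of replicates 2 and 4 were left, and the minimum for a test was lowered to 2 arrays. In that fit 7 of 43 chains were higher and 1 lower in astrocytes, where 4454 of 22258 genes tested passed in either direction. The 15 called chains kept their sign, but these 2 arrays are also part of the main fit.

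**Figure D3:**
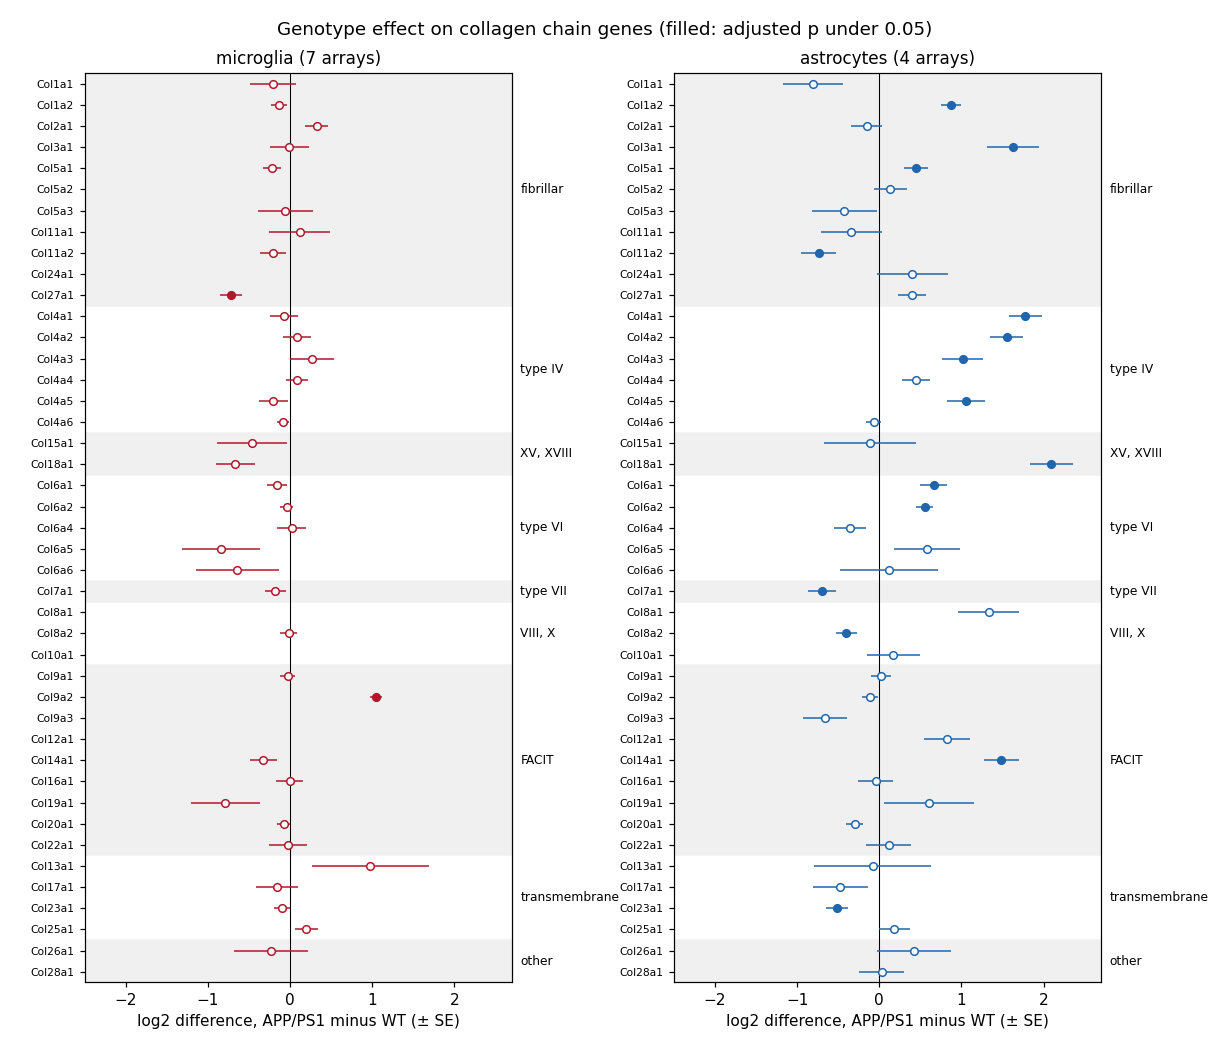
Genotype effect, APP/PS1 minus WT, on every collagen chain in microglia (left, 7 arrays) and astrocytes (right, 4 arrays), on the log2 scale with SE; filled points passed an adjusted p of 0.05. In astrocytes the filled points reach from -0.74 for Col11a2 to 2.10 for Col18a1, with type IV chains on the right, whereas in microglia only Col9a2 and Col27a1 are filled.

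Markers of vascular cells moved in the same samples. Of 11 endothelial markers 10 were higher in APP/PS1 astrocyte samples and 0 lower (median 1.12), and of 11 mural markers 8 were higher and 0 lower (median 2.00). Of all genes tested, 15.4% were higher and 18.1% lower. The level of a list was taken as the mean log2 value over its genes measured in all astrocyte samples. It was 11.33 to 12.31 in WT and 12.31 to 13.35 in APP/PS1 samples for the endothelial list. For the mural list, over 10 of its 11 genes (without Tagln), it was 8.86 to 11.07 and 10.57 to 12.46. The tight junction gene Cldn5 read 15.42 ± 0.48 in WT and 16.44 ± 0.39 in APP/PS1 samples, and the smooth muscle gene Acta2 15.52 ± 1.34 and 17.35 ± 0.77, the latter near the top of the scale. Their part in the collagen differences was not tested.

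Array by array, the endothelial median was 0.28, 1.47, 0.92 and 1.89 in astrocyte replicates 1 to 4 and the mural median 1.67, 2.91, 2.06 and 0.80. Over the same arrays Col4a1 differed by 1.52, 2.31, 1.76 and 1.51. The 14 fibroblast and meningeal markers had 2 higher and 1 lower, where 15.4% and 18.1% of all genes tested were. Their median was 0.23, and it was above 1 on the array of replicate 4 alone (1.03). Ogn (2.18 ± 0.41) and Foxc2 (1.77 ± 0.35) were higher and Fbln1 lower (-1.20 ± 0.17), while the fibroblast genes Dcn (0.39 ± 0.71) and Lum (-0.13 ± 0.50) did not pass and Dpt was dim at 2.65 ± 0.78 and 2.94 ± 0.64, these 3 named after their values were seen.

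Other markers were counted in the same samples, where 15.4% of all genes tested were higher and 18.1% lower. Of 10 astrocyte markers 9 were lower and 1, Gfap, higher (median -1.48, with list means of 14.23 to 14.47 in WT and 12.28 to 14.17 in APP/PS1 samples). Of 9 microglia markers 6 were higher and 2 lower (median 1.31, with list means of 7.72 to 8.91 and 8.65 to 10.57). Of 8 markers of perivascular macrophages 3 were higher (median 0.68), of 8 ependymal and choroid plexus markers 4 (median 0.63) and of 7 oligodendrocyte markers 3, with 1 lower (median 0.31). Of 8 oligodendrocyte precursor markers 1 was higher and 3 lower (median -0.34). Of 10 neuronal markers 1 was higher and 2 lower, near the shares of all genes (median 0.27). The part of these cell types in the collagen differences was not tested either.

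**Figure D4:**
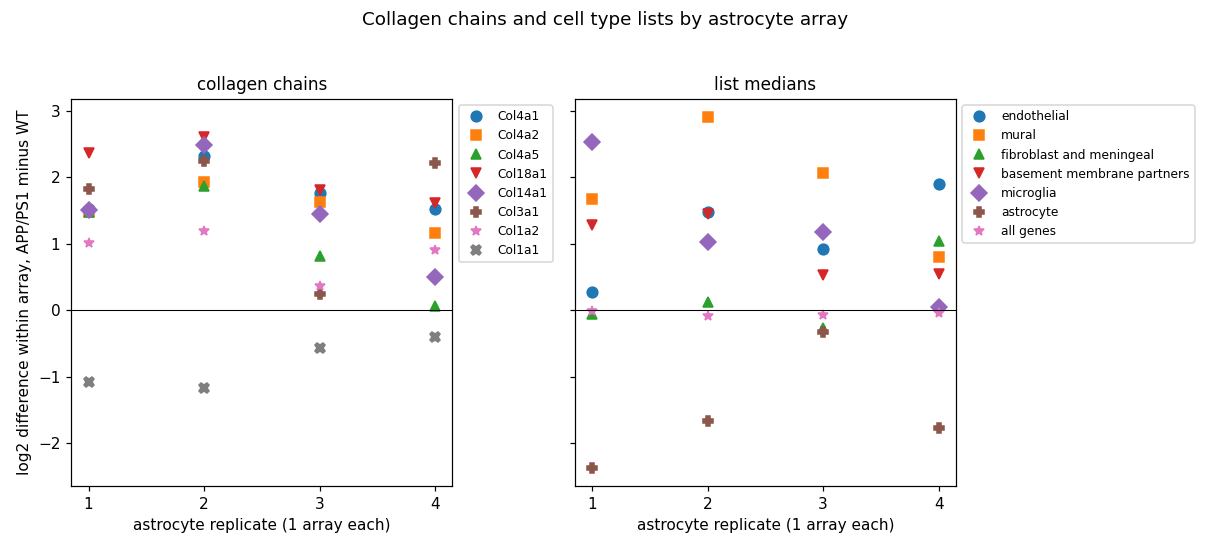
Difference within each astrocyte array, APP/PS1 minus WT on the log2 scale, for 8 collagen chains (left) and for the medians of cell type and pathway lists (right). Col4a1, Col4a2 and Col18a1 are above 1 on all 4 arrays and Col1a1 is below 0 on all 4, while the endothelial and mural medians are above 0 and the astrocyte median below 0 on all 4.

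In microglia few collagen chains differed between genotypes. Of 36 chains tested, 1 was higher (Col9a2, 2.07-fold) and 1 lower (Col27a1, 1.64-fold), where 8.80% of all genes tested were higher and 12.1% lower (20.9% in either direction). The median over the chains was -0.08, against -0.03 for all genes. These values take the brightest probe of each gene. The dimmest of the 3 probes of Col23a1 was past the threshold in microglia (0.68 ± 0.18, 5 arrays, adjusted p = 0.0305). Its brighter probes gave -0.10 and -0.28, neither past it. Most chains were dim in these samples: 26 had both group means under 4.30, 24 were measured on all 7 arrays and 7 on fewer than 3, which were not tested. For such chains a lack of a call says little about a change.

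Col9a2 codes for a chain of type IX collagen, the FACIT of cartilage fibrils. It ran from 6.22 to 7.01 in WT microglia (median 6.72) and from 7.22 to 8.00 in APP/PS1 microglia (median 7.76). The groups did not overlap, which held for 1 of the 36 chains and for 4.17% of all genes tested. The difference was 1.05 ± 0.07 (adjusted p = 1.43e-05), and by array it was 0.81 to 1.31, positive on 7 of 7. In astrocytes Col9a2 was at 6.80 ± 0.17 in WT and 6.69 ± 0.26 in APP/PS1, with no call (adjusted p = 0.432). Of the other type IX chains in microglia, Col9a1 gave -0.03 ± 0.09 with its brighter probe and 0.57 ± 0.39 with its dimmer probe (3 arrays), neither past the threshold, and Col9a3, measured on 2 arrays, was not tested.

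Col27a1, a fibrillar chain, ran from 8.66 to 9.71 in WT microglia (median 9.58) and from 8.02 to 9.15 in APP/PS1 microglia (median 8.84). The ranges overlapped through the low WT sample of replicate 4, yet the APP/PS1 sample was the lower on 7 of 7 arrays, with array differences of -1.009 to -0.48. The difference was -0.72 ± 0.13 (adjusted p = 0.00379). Of the 9 fibrillar chains tested, Col27a1 was the 1 that was higher in WT microglia than in WT astrocytes. In astrocytes it gave 0.40 ± 0.17 (adjusted p = 0.107), and was called without replicate 4 (0.63, adjusted p = 0.0154) and with genes below the median gene left out (adjusted p = 0.049).

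Both microglial calls held without any single array. Within the microglia slides, Col9a2 kept its call on slide 1, Col27a1 on neither, and on slide 2, where 0 genes passed in all (4651 at an unadjusted p under 0.05), both kept their sign. The multiplexins gave -0.67 ± 0.24 for Col18a1 (5 arrays, adjusted p = 0.0898) and -0.46 ± 0.42 for Col15a1 (adjusted p = 0.505), the latter lower on 7 of 7 arrays. The value of Col18a1 is that of its brighter probe. Its other probe went the opposite way, at 0.34 ± 0.36 (5 arrays, adjusted p = 0.591). A fit of the microglia alone called Col15a1 (adjusted p = 0.00417), as did leaving out replicate 6 for the brighter probe of Col18a1 (adjusted p = 0.00408).

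The chains with the largest rise in APP/PS1 astrocytes had no call in microglia. Col4a1 ran from 3.83 to 5.34 in WT and 4.02 to 5.28 in APP/PS1 microglia, a difference of -0.07 ± 0.17, and Col4a2 gave 0.08 ± 0.17. Col3a1 gave -0.01 ± 0.24 and Col1a2 -0.13 ± 0.10. Markers of vascular cells had 1 of 11 endothelial genes (Flt1) and 1 of 11 mural genes (Cspg4) higher in these samples, with medians of 0.07 and 0.04, and 0 of 13 fibroblast markers passed (median -0.35). Of all genes tested in microglia, 8.80% were higher and 12.1% lower. Of the other lists, 7 of 9 microglia markers and 7 of 8 perivascular macrophage markers were lower (medians -0.76 and -0.98), as were 6 of 10 neuronal and 5 of 10 astrocyte markers (medians -0.58 and -0.86). Each of the microglia and astrocyte lists had 1 marker higher, and of 7 oligodendrocyte markers 2 were higher. Of 8 oligodendrocyte precursor and 8 ependymal and choroid plexus markers, 1 each was higher and 0 lower. Their part in the collagen values was not tested.

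The difference between the cell types was tested directly, as the astrocyte effect minus the microglia effect. Of 36 chains, 11 had a larger effect in astrocytes and 1, Col9a2, a smaller effect, where 14.0% and 13.9% of all genes tested did so (28.0% in either direction). The largest differences were those of Col18a1 (2.76 ± 0.35, adjusted p = 0.00108), Col4a1 (1.85 ± 0.26, adjusted p = 0.00113) and Col14a1 (1.81 ± 0.26, adjusted p = 0.00096). That of Col18a1 was taken from its brighter probe, and its probes had opposite signs in microglia. Of the type IV chains 3 of 6 passed, and of the fibrillar chains 4 of 9, namely Col3a1, Col1a2, Col5a1 and Col27a1. For Col27a1 the difference of 1.11 ± 0.22 joined a fall in microglia to an uncalled value above 0 in astrocytes. Without the replicate block 1 chain (Col14a1) still had a larger and 1 (Col9a2) a smaller effect in astrocytes.

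The enzymes that modify, process and crosslink collagen were read from a list of 32 genes, 30 of them in the table. In microglia 6 of 29 were higher in APP/PS1 and 3 lower, where 8.80% and 12.1% of all genes tested were. In astrocytes 6 of 30 were higher and 6 lower, near the 15.4% and 18.1% of all genes. The medians were -0.0043 in microglia and -0.06 in astrocytes. Lox, the lysyl oxidase that crosslinks fibrils, ran from 1.74 to 4.37 in WT and from 6.03 to 7.49 in APP/PS1 microglia (6 arrays), a difference of 3.48 ± 0.33 (adjusted p = 0.000145). It was also higher in APP/PS1 astrocytes, by 1.82 ± 0.39 on 4 of 4 arrays (adjusted p = 0.00659). Pxdn, the peroxidase that crosslinks type IV collagen, ran from 6.29 to 7.53 in WT and from 8.22 to 9.19 in APP/PS1 microglia, a difference of 1.68 ± 0.10 (adjusted p = 4.83e-06). In microglia the groups did not overlap for either enzyme, while the type I, III and IV chains showed no call in the same samples. Of these chains Col1a1, Col3a1, Col4a2, Col4a3 and Col4a5 had both group means under 4.30, where the lack of a call says little.

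The prolyl 3-hydroxylase family members P3h3 (1.04 ± 0.08) and P3h4 (0.87 ± 0.08) were also higher in APP/PS1 microglia. In astrocytes Pxdn (-0.64 ± 0.13), P3h3 (-0.39 ± 0.11) and P3h4 (-0.48 ± 0.11) were lower. Higher in APP/PS1 astrocytes were Pcolce, which enhances the removal of the procollagen end (1.99 ± 0.27), Adamts14, a procollagen protease (1.84 ± 0.26), P3h2 (1.66 ± 0.22) and Crtap (0.70 ± 0.11). Of these, Adamts14 (1.15 ± 0.20, groups not overlapping) and Crtap (0.52 ± 0.08) were higher in APP/PS1 microglia too, on 7 of 7 arrays each. The brightest genes of the list were Ppib, which fell by 0.31 in astrocytes, and Mia3, which showed no call in either cell type.

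Partners of type IV collagen in the basement membrane were higher in APP/PS1 astrocyte samples for 7 of 15 genes and lower for 1 (15.4% and 18.1% of all genes), with a median of 1.19. The laminin chains Lamc1 (1.20 ± 0.16), Lamb2 (1.37 ± 0.20) and Lama5 (1.44 ± 0.25) and the proteoglycan gene Hspg2 (1.19 ± 0.14), which codes for perlecan, had the smallest adjusted p. The list median was 1.28, 1.44, 0.54 and 0.54 on the arrays of replicates 1 to 4. Lama2, the laminin chain known from astrocytes and mural cells, showed -0.14 ± 0.17; it was named after its values were seen. In microglia 1 of 14 was higher (Lamc1, 0.55 ± 0.12) and 2 lower (Nid2, -0.79 ± 0.09, and Sparc, -1.11 ± 0.13), where 8.80% and 12.1% of all genes were.

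Receptors of collagen were higher in APP/PS1 astrocyte samples for 5 of 13 genes and lower for 3, where 15.4% and 18.1% of all genes were. Itgb1, the β1 subunit of the collagen-binding integrins, rose by 1.44 ± 0.16 and Cd93 by 1.36 ± 0.27. Adgrg1, an adhesion receptor for type III collagen, fell by 1.38 in astrocytes and by 0.95 in microglia, on 4 of 4 and 7 of 7 arrays. Gp6, the platelet collagen receptor, was lower in astrocytes from a dim level (-1.66 ± 0.31), and Mrc2, which takes up collagen, was higher in microglia (0.52 ± 0.15). Lair1, the other of the brightest receptor genes, was lower in astrocytes (-0.66 ± 0.15) and not called in microglia.

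For 34 of the 43 genes a RefSeq window upstream of a start was given, 37 windows in all (GRCm38.p6). The 250 bases before the start are shown for genes that turned up in the results above: Col4a5, Col3a1 and Col1a2, which were higher in APP/PS1 astrocytes, and Col9a2 and Col27a1, the genes called in microglia. Capitals mark the letters TATAAA (the TATA box), those of the CCAAT box and GGGCGG (the GC box) on either strand, so a match on the other strand reads as its reverse complement. They lie on the plus strand at chrX:141475169-141475418, chr1:45311288-45311537, chr6:4505368-4505617, chr4:121039316-121039565 and chr4:63215162-63215411.
Col4a5: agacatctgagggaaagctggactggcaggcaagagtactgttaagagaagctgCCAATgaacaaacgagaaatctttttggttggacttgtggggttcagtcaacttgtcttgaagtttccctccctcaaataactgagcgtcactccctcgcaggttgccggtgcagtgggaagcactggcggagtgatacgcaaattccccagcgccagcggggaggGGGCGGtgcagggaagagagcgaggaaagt
Col3a1: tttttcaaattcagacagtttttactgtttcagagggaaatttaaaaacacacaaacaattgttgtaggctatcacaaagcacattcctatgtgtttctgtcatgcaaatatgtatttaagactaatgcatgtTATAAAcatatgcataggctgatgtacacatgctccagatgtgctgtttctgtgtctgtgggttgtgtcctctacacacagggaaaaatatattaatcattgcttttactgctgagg
Col1a2: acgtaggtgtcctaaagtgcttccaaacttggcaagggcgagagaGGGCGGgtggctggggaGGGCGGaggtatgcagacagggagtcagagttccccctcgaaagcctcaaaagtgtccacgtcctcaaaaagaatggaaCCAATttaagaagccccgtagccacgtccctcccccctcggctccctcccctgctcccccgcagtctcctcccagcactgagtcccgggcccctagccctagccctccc
Col9a2: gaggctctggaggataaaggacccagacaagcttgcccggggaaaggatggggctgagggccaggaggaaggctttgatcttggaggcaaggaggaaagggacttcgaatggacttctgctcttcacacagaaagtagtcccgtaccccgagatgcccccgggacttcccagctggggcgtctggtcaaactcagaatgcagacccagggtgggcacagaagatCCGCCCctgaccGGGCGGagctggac
Col27a1: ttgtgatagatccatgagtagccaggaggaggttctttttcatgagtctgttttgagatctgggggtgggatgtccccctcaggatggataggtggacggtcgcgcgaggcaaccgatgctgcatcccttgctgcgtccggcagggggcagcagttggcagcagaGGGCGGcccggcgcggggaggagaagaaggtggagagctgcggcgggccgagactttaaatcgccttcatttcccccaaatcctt
Col3a1 held the TATA box 117 bases before its start and neither of the other motifs. Col1a2 held a CCAAT box and a pair of GC boxes, Col4a5 a CCAAT box and a GC box, and Col9a2 and Col27a1 GC boxes alone. Over the collagen windows 5 of 37 held the TATA box, 13 the CCAAT box and 22 the GC box, where 12.4%, 33.8% and 32.7% of the 32851 windows of all genes did. A match is a description of these letters and not a site of binding.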

How the data were processed

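Cy3- or Cy5-labelled amplified RNA of sorted cells was hybridised to 11 arrays on 3 slides, 22 samples in all. The authors deposited log2 values for each channel, and the submitters' processing notes name limma, with no version; how background was corrected and arrays were normalized is not stated there. For the collagen genes a blank value on an array was blank in both channels. Probes with a value numbered 32045 to 40771 in microglia and 42427 to 42869 in astrocytes. Of 43020 probes, 33026 named 1 gene and 9994 none. Precision is limited by the number of arrays. P-values of genotype effects measure the spread of the within-array differences, and those between cell types the spread between these samples.

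Genotype effects were fitted in limma 3.58.1 (R 4.3.3) on within-array differences, which equals array as a fixed block, with dye as a term, genotype nested in cell type and a spread shared by both cell types. A test needed 3 arrays, or 2 where arrays unmatched in Eif2s3y were left out. Cell types were compared with array as a random block (correlation 0.635, statmod 1.5.0). P-values are two-sided and were adjusted over all genes by the Benjamini-Hochberg method, with a threshold of 0.05; scripts were tested on simulated data. The pairing comes from the labels, which give both samples of a number the same array. Deviations from group means of such samples had r between 0.37 and 0.63 in microglia (median 0.47) and between 0.00076 and 0.50 in astrocytes (median 0.23). For samples of different arrays r ran from -0.53 to 0.51 in microglia (median -0.20) and from -0.47 to 0.42 in astrocytes (median -0.12). The ranges overlapped in both cell types, so the pairing rests on the labels. Named in full were chains of types I, III, V, XV and XVIII, the α1 and α2 chains of type IV, and the α1 to α3 chains of type VI (α3 was not analysed here). Also named were other chains past the threshold in a genotype effect or difference and the 5 largest cell type differences each way. From each pathway or marker list came up to 4 genes per cell type with the smallest adjusted p and up to 2 of the brightest. For the marker lists only some of these were named, and Cldn5 and Kdr were named outside this rule. The collagen genes, classes and lists were chosen with earlier results of these data known. Python 3.11.15 (pandas 2.3.3, numpy 2.4.6, matplotlib 3.10.9) made the tables and figures. Alternatives changed the block, dye, normalization, probe, filter, slide and replicates.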

Additional observations from a re-analysis of the deposited data

Results flagged for a closer look

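The genotype effect differed between the cell types for 12 chains by the interaction test in limma. The astrocyte effect minus the microglia effect was 2.76 for Col18a1, 1.85 for Col4a1, 1.81 for Col14a1, 1.64 for Col3a1, 1.47 for Col4a2, 1.26 for Col4a5, 1.11 for Col27a1, 1.00 for Col1a2, 0.82 for Col6a1, 0.66 for Col5a1, 0.59 for Col6a2 and -1.16 for Col9a2. The call on Col3a1 was lost without astrocyte replicate 2 (adjusted p = 0.0517), and that on Col5a1 without astrocyte replicate 1, 3 or 4.

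A sample stood apart from the rest of its group in 10 of 94 groups checked by Dixon's test, of which chance flags about 1 in 20. In astrocytes these were the APP/PS1 sample 3 of Col4a1 at 11.24 (others 12.50 to 12.69), the WT sample 3 of Col4a3 at 1.87 (3.75 to 4.11), the APP/PS1 sample 1 of Col5a2 at 5.39 (5.75 to 5.77), the WT sample 4 of Col23a1 at 6.23 (6.71 to 6.72) and the APP/PS1 sample 2 of Col27a1 at 7.37 (6.47 to 6.60). In microglia they were the WT sample 5 of Col1a1 at 0.84 (2.697 to 3.61), the APP/PS1 sample 5 of Col8a2 at 3.82 (4.82 to 5.28), the APP/PS1 sample 4 of Col9a2 at 7.22 (7.67 to 8.00), the APP/PS1 sample 4 of Col16a1 at 4.16 (5.25 to 5.88) and the WT sample 4 of Col27a1 at 8.66 (9.34 to 9.71).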

How the results depend on the processing

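Without the replicate block, 1182 genes passed in microglia (4421 with it), 2450 in astrocytes (7512) and 1529 in the difference (5911); of the chains 5 were higher and 0 lower in astrocytes and 1 higher in the difference. Without a dye term 2 chains were lower in astrocytes. In a fit of that cell type alone 2 were lower in microglia (Col15a1 added) and 1 in astrocytes, with 2854 genes called in astrocytes; this 1 was Col1a1, newly called, while the 4 reported lower chains lost their call and 6 of the 15 calls were kept. Slide as a random block left 7219 of 11769 genes between the cell types. Within slide 1 of the microglia 1039 genes and 0 lower chains passed, and within slide 2, with 0 genes (4651 at an unadjusted p under 0.05), 0 chains were higher and 0 lower. Taking only genes above the median gene, which leaves fewer chains to test, 4 were higher and 1 lower in astrocytes, 4 and 2 in the difference and 5 and 2 between cell types, with fibrillar medians of -0.42 in microglia and 0.63 in astrocytes and a type IV median of 1.55 in astrocytes; with genes measured in all samples that median was 0.44. With arrays matched in Eif2s3y, chosen after seeing the data, 2 astrocyte and 6 microglia arrays were left and a test needed 2 arrays in place of 3; 4454 genes, 7 higher and 1 lower chain passed in astrocytes, 2 lower in microglia (Col5a2, measured on at most 2 arrays, added; 40 chains tested in place of 36) and 7 higher in the difference. Averaging the probes of a gene reversed Col4a6 in astrocytes (0.80), Col4a6 between cell types (0.83) and Col8a2 in astrocytes (0.37). Leaving out each replicate gave 1 to 2 higher and 1 to 2 lower chains in microglia, 9 to 11 higher and 1 to 4 lower in astrocytes (1 without astrocyte replicate 1), 10 to 12 higher and 1 to 3 lower in the difference (3 without microglia replicate 7, 2 without astrocyte replicate 2 or 3) and 17 to 20 higher and 4 to 5 lower between cell types; the fibrillar median in astrocytes ran from -0.13 to 0.15 and the type IV median from 0.85 to 1.23. The cause of these shifts was not tested. Signal over background limits the microglia values most, where 26 chains had both group means below the 25th percentile of genes.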
